A study of Mus musculus with 72 samples.

Results

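The genes of cholesterol synthesis and transport were followed in the right brain hemisphere of C57Bl/6 mouse pups (C57Bl/6NTac in the study's methods) that had received saline or the opioid morphine. The set held 30 genes of the 55401 in the count table, each found by its symbol in the authors' comparison tables with letter case ignored, and each symbol matched 1 gene ID. All 30 members passed the filter on low counts in every comparison. By role, 7 members led from acetyl-CoA to farnesyl pyrophosphate, 3 made squalene and lanosterol, and 9 turned lanosterol into cholesterol. Another 4 encoded the factor SREBP-2, which drives synthesis, or proteins that control it. The other 7 served transport, export, storage, turnover or the sterol receptor LXR.

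RNA from single pups was sequenced in 72 libraries over 3 exposure windows. In the PND1 window, an osmotic minipump in the pregnant dam delivered saline or 10 mg/kg/day of morphine, and brains were taken on postnatal day 1, when litters had been found 6 h before. In the PND14 window, pups without drug before birth were injected 2 times a day with 10 mg/kg morphine or with saline and were dissected on day 14, 6 h after the last injection. The 3-Tri pups had both exposures, morphine or saline, with brains taken on day 14. The PND1 groups held 4 (female, morphine), 6 (male, morphine) and, for saline, 7 libraries of each sex label, while every sex and drug group of PND14 and 3-Tri held 6. Litters of the exposed dams were raised by surrogate dams, and the labels do not give the litter of a pup, so p-values measure the spread between pups, some of which may share a litter. In the design text of the submission the tissue is the cortex and the later age is day 15.

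Total counts per library ran from 20742862 to 27333125 at PND1, from 4407544 to 21404819 at PND14 and from 3113919 to 19938980 in 3-Tri. Libraries of the later windows were thus mostly shallower, and a gene at the same scaled level rests on fewer reads there. The neuronal marker *Snap25* lay between 223 and 1522 CPM, the count scaled to a library of fixed size, in every library. *Xist* and *Ddx3y*, which mark female and male tissue, went against the sex label in 4 libraries of PND1, 0 of PND14 and 12 of 3-Tri. In 3-Tri these were 4 of the 6 morphine libraries and 2 of the 6 saline libraries of each sex label, so its comparisons within a sex label mix libraries of both kinds of sex-gene expression. At PND1 these were female morphine replicate 4, male morphine replicate 5, female saline replicate 5 and male saline replicate 10. Sex-specific results of PND1 and 3-Tri are therefore given with and without such libraries, and most results are given as the mean of both sexes.

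Cholesterol does not cross the blood-brain barrier in useful amounts, so the brain makes its own. Synthesis runs from acetyl-CoA through mevalonate, farnesyl pyrophosphate, squalene and lanosterol, and is driven by SREBP-2, which SCAP carries out of the endoplasmic reticulum when sterols are low and INSIG proteins hold back when sterols are high. Developing neurons make cholesterol themselves, and in the weeks after birth astrocytes supply it on apolipoprotein E through ABC transporters, oligodendrocytes use large amounts for myelin, and neurons remove the excess by hydroxylation with CYP46A1.

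Promoters of the members were read from RefSeq on GRCm38.p6, as windows of 300 bases that run from 250 bases before to 50 bases after a start site. Windows were found for 25 of the 30 members, 33 windows in all, and the entries for *Fdps*, *Fdft1*, *Sqle*, *Stard4* and *Abcg1* were missing. The letters TCACNCCAC, a core of the sterol regulatory element that SREBP binds, stood on either strand in 1.24% of all 32851 windows and in 1 of the 33 windows of members, that of *Hmgcs1*, where TCACCCCAC began 137 bases before the start site. The letters CCAAT, bound by NF-Y, stood in 37.4% of all windows and in 20 of the 33. The letters GGGCGG, bound by Sp1, stood in 35.7% of all windows and in 25 of the 33. Both of these motifs are common in promoters, and a window without the letters says nothing of the factor. The windows shown are those of *Hmgcs1*, which holds the sterol element, of *Cyp46a1* and *Ebp*, the largest rise over age in the set and the largest among its enzymes of synthesis, and of *Lbr*, the largest fall. Capitals mark TCACNCCAC and CCAAT or their reverse complements.
Hmgcs1, chr13:119690101-119690400, plus strand: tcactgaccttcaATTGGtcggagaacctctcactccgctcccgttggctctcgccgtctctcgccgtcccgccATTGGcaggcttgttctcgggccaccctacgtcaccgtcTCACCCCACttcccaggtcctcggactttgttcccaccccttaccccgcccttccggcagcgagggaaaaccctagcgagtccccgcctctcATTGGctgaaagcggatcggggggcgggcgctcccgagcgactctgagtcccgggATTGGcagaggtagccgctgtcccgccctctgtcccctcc
Cyp46a1, chr12:108334066-108334365, plus strand: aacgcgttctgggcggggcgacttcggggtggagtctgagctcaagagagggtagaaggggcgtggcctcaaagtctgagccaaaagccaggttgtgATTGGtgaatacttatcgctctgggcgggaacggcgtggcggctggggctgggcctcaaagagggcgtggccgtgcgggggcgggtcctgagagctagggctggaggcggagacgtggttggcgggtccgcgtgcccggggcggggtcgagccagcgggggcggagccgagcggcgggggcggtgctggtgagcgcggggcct
Ebp, chrX:8193463-8193762, minus strand: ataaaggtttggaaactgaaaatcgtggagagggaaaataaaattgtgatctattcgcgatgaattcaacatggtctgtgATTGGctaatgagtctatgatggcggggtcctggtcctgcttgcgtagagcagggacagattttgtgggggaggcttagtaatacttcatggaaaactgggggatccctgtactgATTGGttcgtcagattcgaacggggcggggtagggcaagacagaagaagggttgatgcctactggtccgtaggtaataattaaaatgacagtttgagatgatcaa
Lbr, chr1:181842352-181842651, minus strand: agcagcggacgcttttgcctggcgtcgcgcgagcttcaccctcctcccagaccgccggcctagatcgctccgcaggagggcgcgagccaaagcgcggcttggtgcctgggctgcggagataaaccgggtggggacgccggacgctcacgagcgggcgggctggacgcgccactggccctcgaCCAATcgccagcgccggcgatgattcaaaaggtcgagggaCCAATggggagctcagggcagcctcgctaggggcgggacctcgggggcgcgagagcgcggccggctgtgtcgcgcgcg
The *Hmgcs1* window held 4 CCAAT matches, the *Ebp* and *Lbr* windows 2 each and the *Cyp46a1* window 1. The *Cyp46a1* window held 6 GGGCGG matches, which are not in capitals.

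The first question was how the members changed between the ages in pups that received saline. From PND1 to PND14, 17 members rose, 10 fell and 3 were not called. Genes of export, transport and turnover led the rise, with *Cyp46a1* up 4.50-fold and *Apoe* up 3.22-fold, and the enzymes of synthesis split, with *Ebp* up 2.59-fold and *Lbr* and *Acat2* down 2.03-fold and 1.94-fold. A member was called (a DEG) at an adjPvalue under 0.05 in edgeR's quasi-likelihood test over all genes. Of the 22010 genes tested, 41.7% were called higher and 43.2% lower at PND14, so the count of members called is near the background. The same shares are the background of the counts by role below. The median log2FC was 0.14 over the members and -0.02 over all genes. Age, cohort and the way saline was given, by minipump to the dam or by injection to the pup, cannot be told apart in this comparison. In tissue RNA, fewer cells of a type and less RNA per cell cannot be told apart either.

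**Figure D1:**
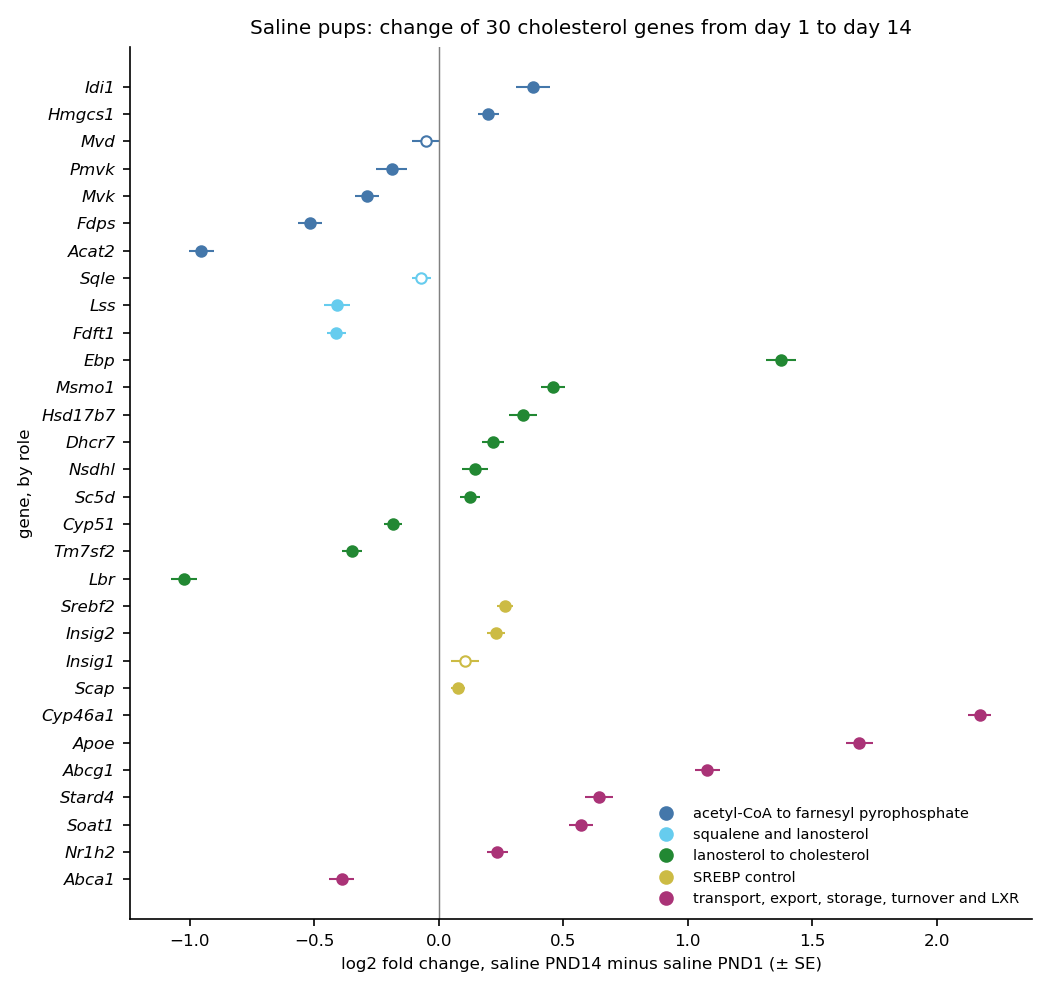
Change of each member in saline pups from PND1 to PND14, as log2FC with its standard error (SE) on the horizontal axis, 1 member per line, coloured by role. Filled points were called at an adjPvalue under 0.05, 17 above 0 and 10 below, and *Cyp46a1* at 2.17 and *Lbr* at -1.02 mark the ends.

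Among the 7 members of transport, export, storage, turnover and LXR, 6 rose and *Abca1* fell. *Cyp46a1*, the neuronal enzyme that hydroxylates cholesterol so that it can leave the brain (ENSMUSG00000021259.5, chromosome 12, 108334381 to 108362234 on mm10), had 33.2 CPM in the lowest, 38.8 in the median and 42.5 in the highest of the 14 PND1 saline libraries. The 12 PND14 saline libraries had 151, 169 and 183 CPM at the same marks. The groups were far apart, and the log2FC was 2.17 (SE 0.0462, adjPvalue 6.44e-52). *Apoe*, the main lipid carrier made by astrocytes (ENSMUSG00000002985.16, chromosome 7, 19696109 to 19699188), ranged from 245 to 406 CPM at PND1, median 287, and from 861 to 1021 CPM at PND14, median 937. Its log2FC was 1.69 (SE 0.0553, adjPvalue 2.39e-40). *Abcg1*, a transporter that exports cholesterol to lipoproteins, went from 20.2 to 31.4 CPM, median 24.7, at PND1 to between 47.5 and 59.4 CPM, median 50.7, at PND14, a log2FC of 1.08 (SE 0.0505, adjPvalue 4.45e-31). No PND14 saline library of these genes fell within the PND1 range.

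The other members of this role changed less. *Stard4*, a carrier of sterol between membranes, had 33.4 ± 5.45 CPM (SD, n = 14) at PND1 and 51.0 ± 2.07 CPM (n = 12) at PND14, a log2FC of 0.64. *Soat1*, which esterifies cholesterol for storage, rose from 20.1 ± 1.63 to 29.1 ± 1.98 CPM, a log2FC of 0.57. Both were higher in every PND14 library than in any PND1 library. *Nr1h2*, which encodes LXR beta, rose from 30.1 ± 2.09 to 34.5 ± 1.83 CPM, a log2FC of 0.23. *Abca1*, the transporter that hands cholesterol to apolipoproteins, fell from 88.0 ± 11.1 to 65.4 ± 5.25 CPM, a log2FC of -0.39. The exporters thus moved in opposite directions, and the ratio of *Abca1* to *Abcg1* level per exonic length was 2.51 ± 0.239 at PND1 and 0.904 ± 0.0960 at PND14.

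Of the 7 enzymes of the early pathway, 2 were called higher and 4 lower, against 41.7% and 43.2% of all genes. *Acat2*, which joins acetyl-CoA units (ENSMUSG00000023832.14, chromosome 17, 12942890 to 12960747), had 93.2, 120 and 136 CPM in the lowest, median and highest PND1 saline library and 49.9, 59.3 and 69.9 CPM at PND14. Its log2FC was -0.95 (SE 0.0491, adjPvalue 1.04e-28). *Fdps*, which makes farnesyl pyrophosphate, ranged from 44.8 to 60.6 CPM at PND1 and from 31.3 to 41.4 CPM at PND14, a log2FC of -0.52 (SE 0.0470). Neither gene's ages overlapped. The kinases of mevalonate changed little, as *Mvk* fell from 44.9 ± 5.44 to 35.8 ± 2.08 CPM and *Pmvk* from 41.5 ± 5.16 to 35.4 ± 4.48 CPM, log2FC -0.29 and -0.19. *Mvd*, the decarboxylase that follows them, had 21.3 ± 3.51 CPM at PND1 and 20 ± 1.22 CPM at PND14 and was not called (log2FC -0.05, interval -0.16 to 0.06). *Hmgcs1*, which makes the precursor of mevalonate, rose from 387 ± 40.0 to 434 ± 30.5 CPM and *Idi1*, the isomerase of isopentenyl pyrophosphate, from 30.2 ± 5.50 to 38.5 ± 4.36 CPM, log2FC 0.20 and 0.38.

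At the branch to sterols, *Fdft1*, squalene synthase, fell from 140 ± 13.8 to 103 ± 4.78 CPM, and *Lss*, which closes squalene epoxide into lanosterol, fell from 55.7 ± 8.11 to 41.1 ± 1.53 CPM, each with a log2FC of -0.41. *Sqle*, the squalene epoxidase between them, had 146 ± 15.02 and 136 ± 6.97 CPM and was not called (log2FC -0.07, adjPvalue 0.0926).

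Among the 9 enzymes after lanosterol, 6 rose and 3 fell, against 41.7% and 43.2% of all genes. *Ebp*, the isomerase that shifts a double bond of the sterol ring (ENSMUSG00000031168.14, chromosome X, 8185329 to 8193512), had 5.85 to 8.43 CPM in the PND1 saline libraries, median 7.19, and 16.1 to 21.9 CPM at PND14, median 18.2. Its log2FC was 1.37 (SE 0.0604, adjPvalue 1.17e-32), and it was the member with the lowest count level at PND1. *Lbr*, a receptor of the nuclear lamina that is also a sterol reductase (ENSMUSG00000004880.11, chromosome 1, 181815335 to 181843046), had 24.5 to 34.4 CPM at PND1, median 28.8, and 11.9 to 15.4 CPM at PND14, median 13.4. Its log2FC was -1.02 (SE 0.0522, adjPvalue 6.40e-29). The ages did not overlap for either gene. *Tm7sf2*, which carries out the same reduction as *Lbr*, fell from 45.6 ± 4.28 to 34.9 ± 2.49 CPM, a log2FC of -0.35, and the ratio of *Lbr* to *Tm7sf2* level per exonic length was 0.585 ± 0.0932 at PND1 and 0.363 ± 0.0258 at PND14.

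The remaining enzymes of this stretch moved by less. *Cyp51*, the demethylase of lanosterol, fell from 143 ± 11.9 to 123 ± 7.48 CPM, a log2FC of -0.18. *Msmo1*, which acts on the next methyl groups, rose from 69.6 ± 8.72 to 93.5 ± 5.18 CPM, a log2FC of 0.46, and *Hsd17b7*, a ketosteroid reductase of the same steps, rose from 29.8 ± 4.70 to 36.8 ± 2.08 CPM, a log2FC of 0.34. *Dhcr7*, which makes the last reduction to cholesterol in one branch, rose from 65.0 ± 4.65 to 74.0 ± 4.65 CPM, a log2FC of 0.22. *Nsdhl*, a sterol dehydrogenase, and *Sc5d*, a sterol desaturase, had log2FCs of 0.15 and 0.12, and these calls depended on the processing. Both lost the call with no filter on low counts (adjPvalue 0.0551 and 0.0514) and in DESeq2 (0.0589 and 0.0547).

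Of the 4 genes of SREBP control, 3 rose. *Srebf2*, which encodes SREBP-2, went from 250.7 ± 17.4 to 294 ± 10.3 CPM, a log2FC of 0.27, and *Insig2*, which retains the SREBP-2 complex, from 32.5 ± 1.10 to 37.1 ± 1.63 CPM, a log2FC of 0.23. In both, every PND14 saline library was above every PND1 saline library. *Scap*, the escort of SREBP-2, had 99.3 ± 5.38 and 102 ± 5.79 CPM, and its log2FC of 0.08 was called (adjPvalue 0.0108) but not with DESeq2 size factors (0.198), in DESeq2 (0.213) or without the filter (0.294). *Insig1*, the sterol-responsive partner of *Insig2*, had 82.3 ± 12.8 and 86.5 ± 3.75 CPM and was not called (log2FC 0.11, adjPvalue 0.0677).

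In all, 8 members were higher in every PND14 saline library than in any PND1 saline library (*Cyp46a1*, *Apoe*, *Ebp*, *Abcg1*, *Stard4*, *Soat1*, *Srebf2* and *Insig2*) and 3 were lower (*Lbr*, *Acat2* and *Fdps*). Of 18927 genes above 1 CPM at either age, 26.6% separated upward and 28.1% downward in this way. The summed level of the 30 members was 2530 ± 163 CPM at PND1 and 3301 ± 89.0 CPM at PND14, to which *Apoe* alone gave 297 and 933 CPM. The summed level of the 19 enzymes of synthesis was 1534 ± 137 and 1449 ± 67.4 CPM, ranges that overlapped. Per kilobase of exon at PND14, *Apoe* had the highest level at 436 CPM, *Hmgcs1* followed with 94.4, and *Soat1* and *Lbr* had the lowest with 2.97 and 2.87. At PND1 the order at the top was the same, with 139 and 84.2 CPM per kilobase, and *Soat1* was lowest with 2.05.

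**Figure D2:**
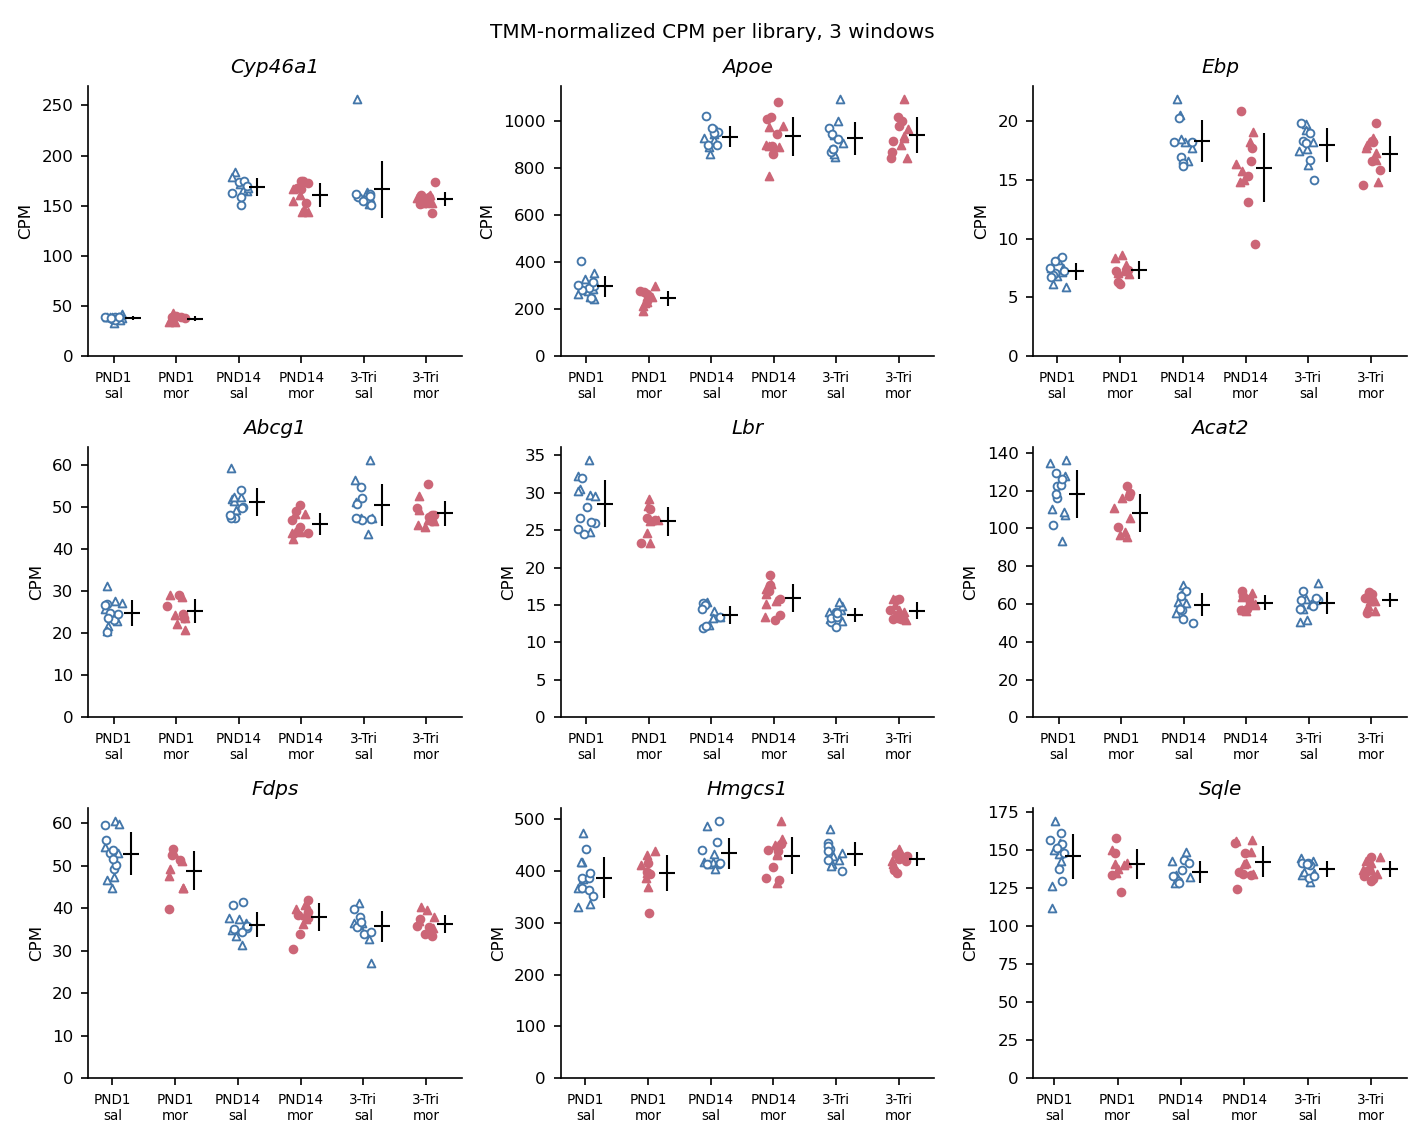
TMM-normalised CPM of 9 members in every library, by window and drug. Open blue symbols are saline and filled red ones morphine, triangles are libraries labelled male and circles those labelled female, and black marks the mean with its SD. *Cyp46a1*, *Apoe*, *Ebp* and *Abcg1* sit higher and *Lbr*, *Acat2* and *Fdps* lower in the later windows, *Hmgcs1* and *Sqle* overlap, and 1 saline library of 3-Tri stands out with 257 CPM of *Cyp46a1*.

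The marker genes of several cell types changed with the same ages. The summed level of 10 myelin genes ran from 200 to 281 CPM in PND1 saline libraries and from 4446 to 6391 CPM at PND14, that of 7 astrocyte genes from 632 to 905 and from 4264 to 5455 CPM, and that of 5 microglial genes from 113 to 129 and from 285 to 325 CPM. The summed level of 5 neuronal genes ran from 2329 to 2660 CPM at PND1 and from 3804 to 4324 CPM at PND14. Sums of oligodendrocyte precursor and endothelial genes were also higher in every PND14 saline library, while those of choroid plexus, red cell and hindbrain genes overlapped. The myelin genes *Mobp* and *Opalin* were under 1 CPM on average at PND1. The part of these cell types in the changes of the members was not tested. Of 29 other sterol genes that could be tested, 15 rose and 7 fell, against 41.7% and 43.2% of all genes. The smallest p-values were those of *Clu*, a lipoprotein also called apolipoprotein J (log2FC 2.45), *Lcat*, which esterifies cholesterol on lipoproteins (2.24), *Lrp8*, an apolipoprotein E receptor (-0.80), and *Cyp7b1*, an oxysterol hydroxylase (0.95).

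Saline pups of the 2 later windows, both 14 days old, gave 0 calls among the members and 0.0% of 22010 genes in edgeR, with 0 members and 3.28% of all genes at an unadjusted p under 0.05 and 0 members called in DESeq2. The median log2FC of the members, 3-Tri minus PND14, was -0.01. The members with the smallest p were *Sc5d* at 0.08 (interval -0.01 to 0.16), *Abca1* at 0.10 (-0.01 to 0.20) and *Pmvk* at 0.10 (-0.03 to 0.23). In 3-Tri saline, *Cyp46a1* had 166 ± 28.7 CPM and *Apoe* 926 ± 70.3 CPM (n = 12). The wide SD of *Cyp46a1* came from male saline replicate 1, the shallowest library of all, which had 257 CPM while the other 11 had 151 to 164 CPM.

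The next question was whether morphine before birth changed these genes at PND1. With both sexes joined, 5 members were lower after morphine and 0 higher, by at most 1.23-fold. They were *Mvd* and *Pmvk* of the mevalonate pathway, the sterol reductase *Tm7sf2*, the SREBP escort *Scap* and the lipid carrier *Apoe*. They were 5 of 30 members, while 9.43% of the 21714 genes tested were called lower and 7.39% higher. The log2FC was below 0 for 26 of the 30 members, against 47.8% of all genes, and its median was -0.08 over the members and 0.01 over all genes.

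**Figure D3:**
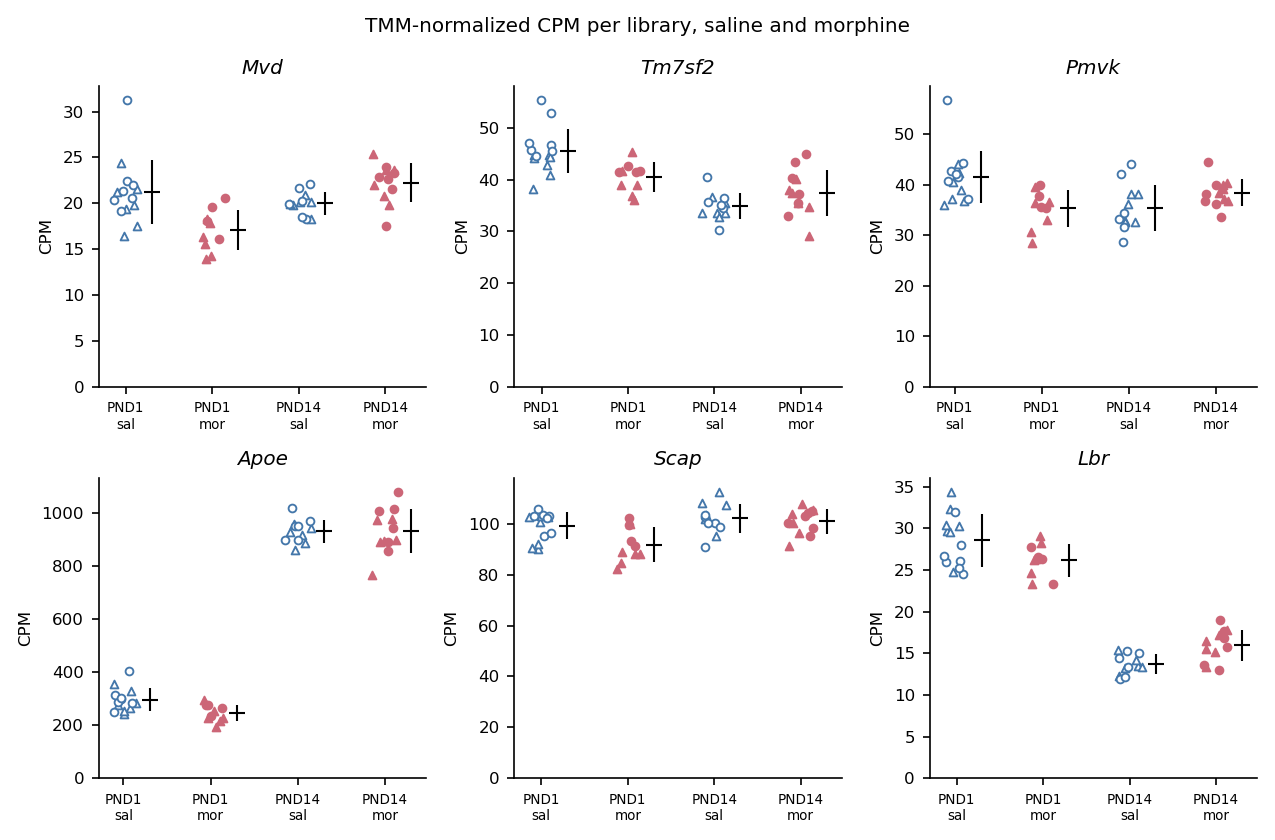
TMM-normalised CPM of *Mvd*, *Tm7sf2*, *Pmvk*, *Apoe*, *Scap* and *Lbr* in the PND1 and PND14 libraries, by drug (open blue saline, filled red morphine), with triangles for male and circles for female labels and black marks for the mean with its SD. Means after morphine were lower at PND1 for all 6, the groups overlapped, and no such shift was called at PND14.

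*Mvd*, the decarboxylase at the end of the mevalonate steps (ENSMUSG00000006517.5, chromosome 8, 122433601 to 122443422), had 16.2, 18.1, 19.6 and 20.6 CPM in the female morphine libraries and 13.9, 14.2, 15.6, 16.3, 17.8 and 18.2 CPM in the male ones. The female saline libraries had 19.2, 20.3, 20.6, 21.4, 22.04, 22.4 and 31.2 CPM, and the male ones 16.4, 17.5, 19.3, 19.8, 21.3, 21.6 and 24.4 CPM. The saline libraries lay higher on the whole, with overlap, and the highest was female saline replicate 5, one of those against its sex label. The log2FC was -0.30 (SE 0.0768, adjPvalue 0.00932, n = 10 and 14).

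*Tm7sf2* (ENSMUSG00000024799.16, chromosome 19, 6062821 to 6068373) had 41.4, 41.6, 41.7 and 42.7 CPM after morphine in females and 36.2, 36.8, 38.9, 39.0, 41.6 and 45.4 CPM in males. After saline it had 44.6, 45.5, 45.8, 46.8, 47.0, 52.9 and 55.3 CPM in females and 38.3, 41.0, 42.9, 44.2, 44.4, 44.7 and 44.8 CPM in males. All 4 female morphine libraries lay below all 7 female saline libraries, as did 1.76% of the 18338 genes above 1 CPM, and the male groups overlapped. The log2FC over both sexes was -0.16 (SE 0.0419, adjPvalue 0.0103).

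*Pmvk*, phosphomevalonate kinase (ENSMUSG00000027952.16, chromosome 3, 89454541 to 89469013), had 35.4 to 39.9 CPM in the female and 28.5 to 39.6 CPM in the male morphine libraries, and 37.2 to 56.7 CPM and 36.0 to 44.2 CPM in the saline ones. Its log2FC was -0.22 (SE 0.0606, adjPvalue 0.0143). *Apoe* had 234 to 276 and 194 to 297 CPM after morphine and 249 to 406 and 245 to 355 CPM after saline in females and males. Its log2FC was -0.25 (SE 0.0748, adjPvalue 0.0214), and the highest value of both genes was again that of female saline replicate 5. *Scap* (ENSMUSG00000032485.14, chromosome 9, 110333288 to 110384950) had 91.3 to 102 and 82.2 to 100 CPM after morphine and 95.1 to 106 and 90.1 to 103 CPM after saline, a log2FC of -0.10 (SE 0.0329, adjPvalue 0.0345). All groups of these genes overlapped, and the call of *Apoe* was lost without female morphine replicate 1 (0.0519). That of *Scap* was lost, with an adjPvalue of at most 0.0860, when any 1 of these libraries was left out: replicates 2 and 4 of the female and 8, 9 and 10 of the male morphine group, and replicates 1, 2 and 3 of the female and 9 and 10 of the male saline group. Without the 4 libraries against their sex label, 6 members were called, *Mvk* with the 5 above. The share of all genes called without these libraries is not given here.

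Genes called at PND1 differed in base composition by direction. The GC content of the longest transcript had a median of 49.4% over the genes tested, 56.2% over the genes called lower and 44.2% over those called higher. The 5 members called lower had a median of 59.0%, and all 30 members 49.2%. After a correction for GC content and length in each library, 4 members were called, of which *Tm7sf2* (log2FC -0.15) was the 1 also called before. The others were *Insig2* (-0.15), *Lbr* (-0.18) and *Stard4* (-0.26), with lower GC content. *Mvd* (-0.18, adjPvalue 0.120), *Pmvk* (-0.12, 0.103), *Apoe* (-0.13, 0.174) and *Scap* (-0.00, 0.958) lost their calls. The share of all genes called after the correction is not given here, so the 4 members cannot be set against a background. After the correction the log2FC was below 0 for 24 of the 30 members in place of 26, and the median was -0.08 in both. The median of the 15 members above the median GC content moved from -0.10 to -0.08, and that of the other 15 from -0.02 to -0.08. The part of GC content in the morphine result of a single gene was not tested beyond this correction.

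**Figure D4:**
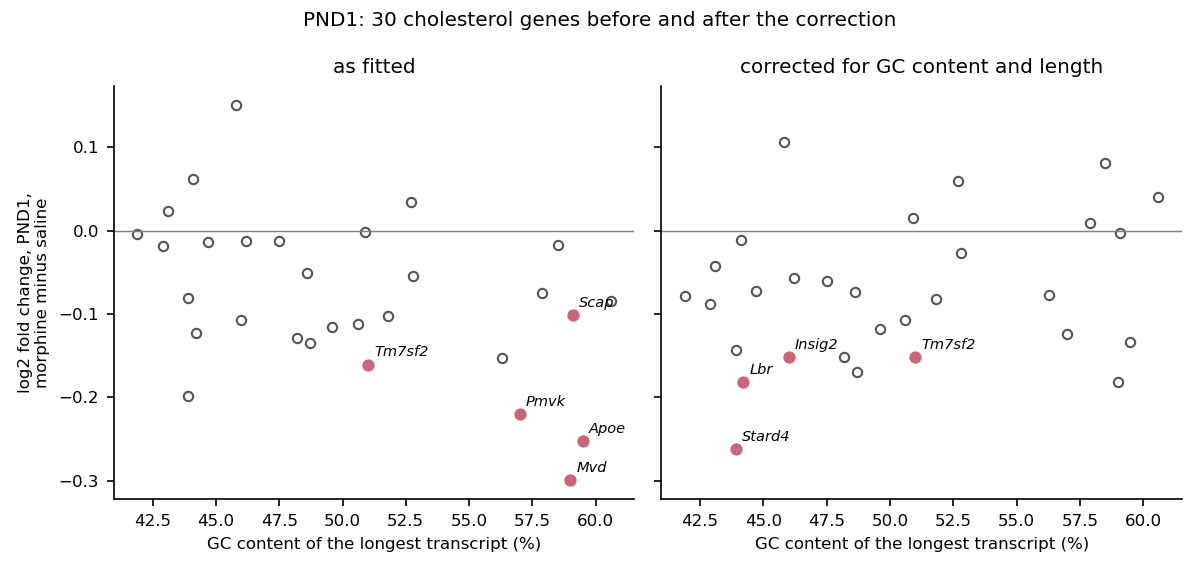
Log2FC of morphine against saline at PND1 for the 30 members, both sexes joined, against the GC content of the longest transcript in percent, before and after the correction for GC content and length. Filled points were called, 5 before and 4 after, and *Scap* moves from -0.10 to -0.00 and *Mvd* from -0.30 to -0.18.

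Within the sex labels at PND1, 2 members were lower in males, *Mvd* at -0.33 (SE 0.103, adjPvalue 0.0327) and *Scap* at -0.13 (SE 0.0437, adjPvalue 0.0379), with 8.08% of all genes called lower and 6.31% higher. *Lbr* (-0.20, adjPvalue 0.0526) and *Apoe* (-0.28, adjPvalue 0.0548) missed the threshold. Without the libraries against the sex label 6 members were called in males, *Apoe* (-0.37), *Mvd* (-0.36), *Pmvk* (-0.28), *Nr1h2* (-0.22), *Scap* (-0.17) and *Tm7sf2* (-0.17), and over the libraries left out 1 at a time the count ran from 0 to 7. It was 0 without male morphine replicate 9 or 10 or male saline replicate 10. It was 1 without male morphine replicate 7 or 8 or male saline replicate 11, where *Mvd* was called, and without male morphine replicate 6 or male saline replicate 9, where *Mvd* and *Scap* both lost their call and *Lbr* was called. Leaving out male morphine replicate 5 gave 7 members and leaving out female saline replicate 5 gave 5, *Mvd* and *Scap* among them in both. Without male saline replicate 13 the 4 called were *Lss*, *Mvd*, *Acat2* and *Srebf2*, and *Scap* was not called (adjPvalue 0.0692). Without male saline replicate 12 *Scap* and *Apoe* were called and *Mvd* was not (0.0652). With the GC content and length correction *Lbr* alone of the members was called in males (-0.28, adjPvalue 0.0103). For these refits in males the shares of all genes called are not given here, so a change in the count may not be particular to the members. In females 0 members and 0.0% of all genes were called in edgeR, with 4 members and 11.7% of all genes at an unadjusted p under 0.05 and 0 members called in DESeq2. Without the libraries against the label edgeR also called 0 members. The smallest p-values in females were those of *Tm7sf2* at -0.21 (SE 0.0626, adjPvalue 0.189), *Insig2* at -0.19 (SE 0.0593, adjPvalue 0.204) and *Pmvk* at -0.23 (SE 0.0905, adjPvalue 0.314). With the libraries against the label left out they were those of *Tm7sf2* at -0.18 (SE 0.0605), *Insig2* at -0.19 (SE 0.0617) and *Mvd* at -0.23 (SE 0.101). The difference between the sexes in the response gave 0 calls among the members and 0.0% over all genes, and 0 members in DESeq2. At an unadjusted p under 0.05 stood 2 members, *Ebp* and *Insig2*, and 5.47% of all genes. With the libraries against the label left out, edgeR again called 0 members. *Nr1h2* (-0.27), *Insig2* (0.18) and *Soat1* (0.19) were then under an unadjusted p of 0.05, and *Ebp* (0.21) was not. A sex-specific response of a member was thus not shown.

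Cell type markers at PND1 moved with the drug in part. The summed astrocyte genes ran from 741 to 1098 CPM after morphine and from 632 to 905 CPM after saline, 2 of 7 called higher. The summed endothelial genes ran from 70.8 to 91.9 and from 80.0 to 111 CPM, 1 of 4 called lower. The choroid plexus genes overlapped widely, at 202 to 461 and 228 to 550 CPM. The summed hindbrain and spinal cord *Hox* genes, of which *Hoxc8* was at 0, had a median of 6.22 CPM after morphine (0 to 41.0) and 0.530 CPM after saline (0 to 20.1). In libraries labelled male, where members were called, the medians were 23.4 CPM (0.660 to 41.0) and 0.654 CPM (0.0429 to 16.3), and 1 of the 5 tested *Hox* genes, *Hoxb8*, was called higher there, with 0 called with the sexes joined. Their part in the changes of the members was not tested. Of 28 other sterol genes tested, *Ggps1*, which makes geranylgeranyl pyrophosphate, was higher (log2FC 0.20), and *Stard3*, a sterol transporter of late endosomes (-0.16), and *Tspo*, a cholesterol-binding protein of mitochondria (-0.40), were lower.

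At PND14, after morphine by injection, 1 member was called with both sexes joined, the exporter *Abcg1*, which was lower. Of the 19636 genes tested, 1.06% were called lower and 0.626% higher. *Abcg1* (ENSMUSG00000024030.7, chromosome 17, 31057675 to 31117988) had 42.4, 43.8, 44.2, 44.6, 48.3 and 48.4 CPM in male and 44.0, 44.4, 45.3, 47.1, 49.1 and 50.5 CPM in female morphine libraries. Saline libraries had 49.4, 51.4, 52.0, 52.4, 52.5 and 59.4 CPM in males and 47.5, 47.5, 48.1, 49.9, 50.1 and 54.2 CPM in females. All 6 male morphine libraries lay below all 6 male saline libraries, as did 0.886% of 18165 genes, and the female groups overlapped. The log2FC was -0.14 (SE 0.0355, adjPvalue 0.0357), a 1.10-fold difference.

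The call of *Abcg1* was not stable. Its adjPvalue was 0.0607 without the filter on low counts and 0.0640 with the GC correction, and it rose to between 0.0501 and 0.0818 when any 1 of 12 libraries was left out. These were replicates 7 and 9 of the male and 5, 10 and 11 of the female morphine group, and replicates 3, 7, 8 and 9 of the male and 6, 10 and 11 of the female saline group. Without female morphine replicate 6, male morphine replicate 8 or female saline replicate 12, 2 members were called. The sample IDs of PND14 open with a number whose meaning the labels do not give, 4422 or 4423 in every morphine pup and 4424 or 4425 in every saline pup, 6 libraries each. The numbers are nested within drug, 2 to each, and the adjPvalue of *Abcg1* was 0.375, 0.181 and 0.353 without number 4423, 4424 or 4425. *Mvd* had a log2FC of 0.16 (adjPvalue 0.0712) and *Lbr* of 0.21 (adjPvalue 0.0902), both on the higher side after morphine, and DESeq2 called these with *Abcg1*. *Lbr* had 13.04 to 19.03 CPM over the 12 morphine libraries and 11.9 to 15.4 CPM over the 12 saline libraries, and *Mvd* 17.5 to 25.4 and 18.3 to 22.1 CPM, so each pair of groups overlapped. At an unadjusted p under 0.05 stood 13 members and 16.0% of all genes, and the median log2FC of all 30 was 0.01.

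In PND14 males 0 members were called, with 0.28% of all genes called, 8 members and 9.29% of all genes at an unadjusted p under 0.05 and 1 member called in DESeq2, *Abcg1* (adjPvalue 0.0112). *Abcg1* was also called in edgeR without female morphine replicate 4 or 6 or male saline replicate 2 (adjPvalue 0.0492, 0.0488 and 0.0415). In the edgeR fit *Abcg1* had a log2FC of -0.21 (SE 0.0497, adjPvalue 0.0576), *Cyp46a1* of -0.16 (SE 0.0516, adjPvalue 0.218) and *Mvd* of 0.18 (SE 0.0660, adjPvalue 0.322). *Cyp46a1* had 143 to 167 CPM in the male morphine and 164 to 183 CPM in the male saline libraries. In females 0 members and 0.0% of genes were called, with 3 members and 10.5% of all genes at an unadjusted p under 0.05 and 0 members in DESeq2. The smallest p-values were those of *Lss* (-0.12, SE 0.0496, adjPvalue 0.415), *Lbr* (0.21, SE 0.0919, adjPvalue 0.439) and *Mvd* (0.14, SE 0.0675, adjPvalue 0.465). The response did not differ between the sexes for any member at the threshold (0 called, 0.0% of all genes, 0 in DESeq2, and *Cyp46a1* alone of the members, with 3.44% of all genes, at an unadjusted p under 0.05). Without regard to drug, males and females differed in 0 members and 0.107% of all genes, with 0 members and 4.97% of all genes at an unadjusted p under 0.05 and 0 members in DESeq2, and the smallest p was that of *Apoe* at -0.08 (interval -0.16 to 0.00, male minus female).

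Myelin genes were lower after morphine at PND14. The summed level of the 10 genes ran from 2884 to 5448 CPM after morphine and from 4446 to 6391 CPM after saline, and 6 of them were called lower. The summed microglial genes ran from 230 to 296 and from 285 to 325 CPM, 1 of 5 called lower, and the astrocyte genes from 3821 to 4706 and from 4264 to 5455 CPM, 0 of 7 called. The part of these cell types in the *Abcg1* result was not tested. Among 28 other sterol genes tested at PND14, *Npc1*, the transporter that releases cholesterol from lysosomes, was lower (log2FC -0.16, SE 0.0357, adjPvalue 0.0253) and 0 were higher.

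After exposure through all windows, 3-Tri, 0 members and 0.0% of 19730 genes were called with the sexes joined, in males, in females or for the difference between the sexes, in edgeR or in DESeq2. The counts at an unadjusted p under 0.05 were 1, 5, 1 and 5 members, against 4.88%, 4.98%, 2.41% and 2.32% of all genes. With the sexes joined the smallest p-values were those of *Tm7sf2* at 0.09 (interval 0.02 to 0.15), *Sc5d* at -0.07 (-0.15 to 0.01) and *Dhcr7* at -0.08 (-0.19 to 0.03). In males they were those of *Abca1* at -0.18 (SE 0.0591), *Tm7sf2* at 0.10 (SE 0.0444) and *Mvd* at 0.12 (SE 0.0554), all with an adjPvalue of 0.920. In females they were those of *Fdft1* at -0.09 (SE 0.0363), *Idi1* at -0.13 (SE 0.0631) and *Abca1* at 0.11 (SE 0.0581). For the difference between the sexes *Abca1* had the smallest p, at -0.28 (SE 0.0829). Leaving out the 12 libraries against their sex label also gave 0 calls in each of these comparisons. With the sexes joined *Tm7sf2* then had 0.11, *Sc5d* -0.11 and *Dhcr7* -0.15. In males *Abca1* had -0.11 (SE 0.109), *Tm7sf2* 0.14 and *Mvd* 0.04, in females *Fdft1* had -0.14, *Idi1* -0.09 and *Abca1* 0.21 (SE 0.107), and the difference between the sexes in *Abca1* was -0.32 (SE 0.153). The smallest p of the difference was then that of *Msmo1* at 0.31 (SE 0.127).

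**Figure D5:**
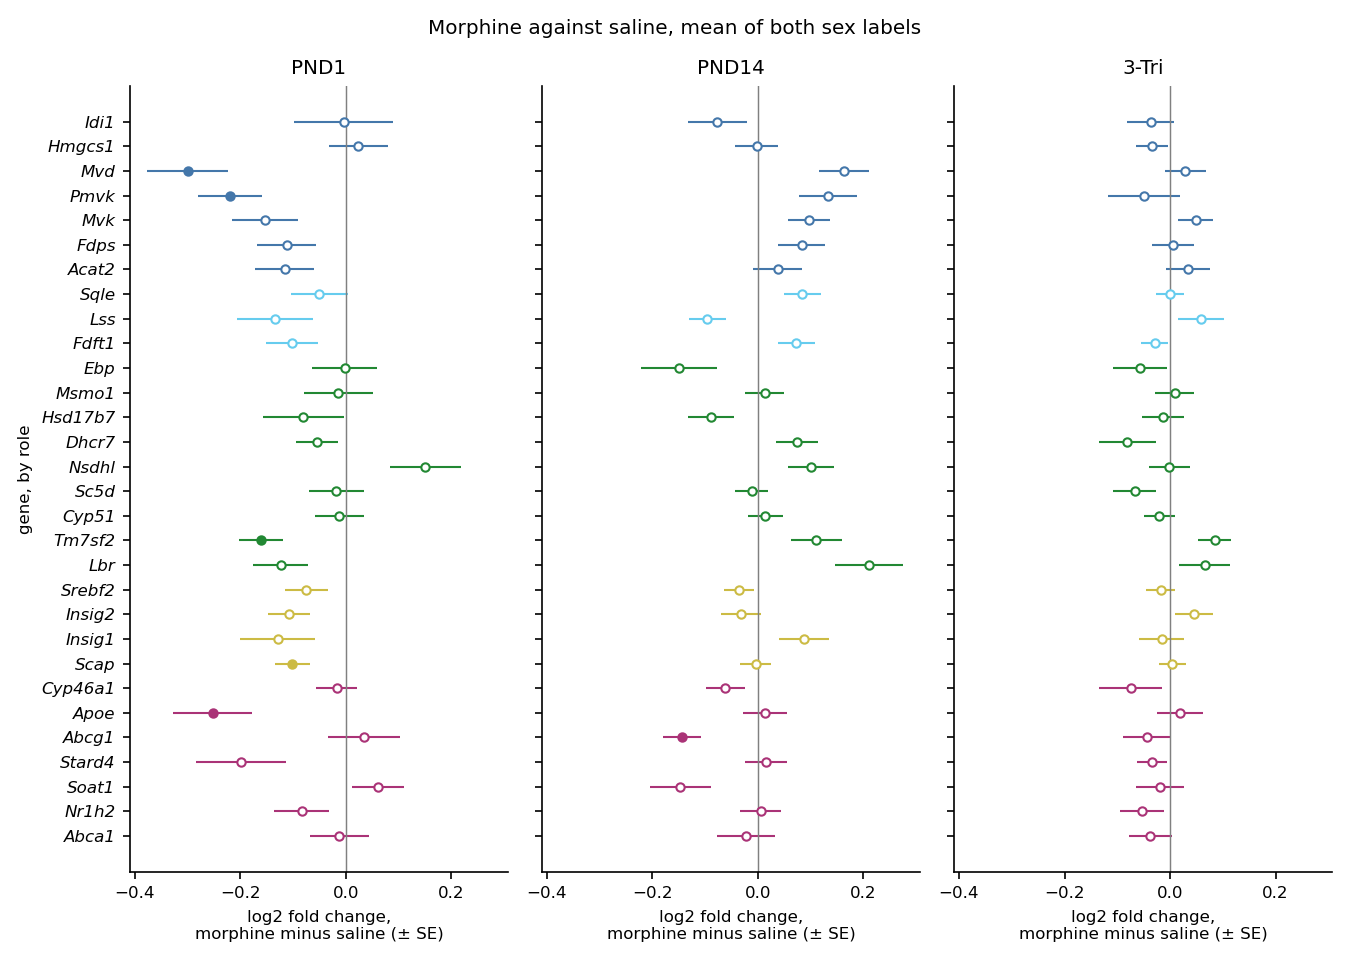
Log2FC of morphine against saline with its SE for each member in the 3 windows, both sexes joined, coloured by role. Filled points were called at an adjPvalue under 0.05, 5, 1 and 0 in the order PND1, PND14, 3-Tri, and 26 of 30 members lie below 0 at PND1.

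The difference between windows was tested directly, as the morphine log2FC at PND14 minus that at PND1. It was above 0 and called for 7 members and below 0 for 1, against 7.25% and 6.07% of all 22010 genes. The enzymes led, with *Mvd* at 0.46 (SE 0.0834, adjPvalue 0.000137), *Pmvk* at 0.35 (SE 0.0911, adjPvalue 0.00575), *Lbr* at 0.33 (SE 0.0771, adjPvalue 0.00225) and *Tm7sf2* at 0.27 (SE 0.0592, adjPvalue 0.00122). *Mvd* itself had a log2FC of -0.30 in the PND1, 0.16 in the PND14 and 0.03 in the 3-Tri window, and *Lbr* had -0.12, 0.21 and 0.07. *Apoe* (0.26), *Mvk* (0.25) and *Fdft1* (0.17) were also called. *Soat1*, which stores cholesterol as ester, was the 1 called in the opposite direction, at -0.21 (SE 0.0737, adjPvalue 0.0432), with 0.06 at PND1 and -0.15 at PND14. With the correction for GC content and length 4 members were called, *Mvd*, *Tm7sf2*, *Lbr* and *Stard4*, so 3 of the 8 kept their call. Without the libraries against the sex label 6 were called, as *Fdft1* (adjPvalue 0.0583) and *Soat1* (0.0749) lost theirs. Shares of all genes called with the correction or without those libraries are not given here. Age, dosing route, cohort and depth differ between these windows and cannot be told apart from the exposure. Of the 29 other sterol genes, *Scarb1* and *Tspo* were called above 0 and *Clu* and *Ggps1* below.

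Reads of some members may belong to neighbouring genes, since the strand setting of the counting is not given in the sources used here. By GENCODE M21, over 10% of the exonic bases were shared with another gene in 5 members, *Fdps* (26.7%, *Gm43738* on the same strand), *Fdft1* (18.3%, *Ctsb* on the opposite strand), *Scap* (13.2%), *Hmgcs1* (12.1%) and *Tm7sf2* (12.1%, *Vps51* on the same strand). The level of *Fdft1* in particular can hold reads of *Ctsb*, a lysosomal protease.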

How the data were processed

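RNA-seq libraries of 72 pups, 1 hemisphere each, were used. The authors trimmed 150 bp paired-end reads with Trim Galore 0.6.6, aligned them with HISAT2 2.2.1 to mm10, removed duplicates with Picard and counted them with featureCounts 2.0.1 on GENCODE M25. The authors deposited 1 table of raw, unnormalized counts for all genes and libraries, in which 0 rows lacked a gene name and 0 columns lacked a sample. The tables of the authors' own DESeq2 comparisons hold fold changes and p-values and served only to pair gene IDs with symbols. Neither the strand setting nor the kit's strandedness is given in the sources used here. Removing duplicates lowers the counts of very abundant transcripts.

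Tests were run in R 4.3.3 with edgeR 4.0.16. Genes passed filterByExpr (minimum count 10, minimum total 15), libraries were scaled by TMM, and the quasi-likelihood F test was fitted to the 4 groups of a window, or to all 72 libraries for contrasts between windows. Results for both sexes are the mean of the male and female contrasts. P-values were Benjamini-Hochberg adjusted over all genes tested, and 0.05 was the threshold of a call. Levels in CPM were scaled by TMM, intervals are the log2FC ± 1.96 SE, and a level per kilobase divides by exonic length from GENCODE M21. The GC content was that of the longest M21 transcript. A library went against its sex label where *Xist* or *Ddx3y* of the other sex passed 25% of its PND14 median in that sex.

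The members, gene lists and tests were chosen with earlier results of these data known. Every member was named, with each member called in a drug comparison or, where none was, up to 3 with the smallest p. The fit was first run with edgeR's robust option and its calls were seen. The fit without that option was chosen after that, to match the series' processing, and the robust fit was kept as an alternative. Other alternatives were DESeq2 1.42.0, its size factors, no filter, a correction for GC content and length (lowess, span 0.3, prior count 2), the replicate number as a block, the leading number of the sample IDs in PND14 and 3-Tri (meaning not given, 2 per drug and window) as a random effect in limma 3.58.1, and subsets of libraries. The steps were tested on simulated counts. The smallest change planted there was larger than any morphine change called in the reported fit with the sexes joined, so recovery of such small changes was not tested. No replicates matched within counting noise (lowest chi-square per gene 1.64). Figures were drawn with Python 3.11.15 and matplotlib 3.10.9.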

Additional observations from a re-analysis of the deposited data

Results flagged for a closer look

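Gaps at the end of a group were searched in 88 combinations of a member and a group of 4 to 7 libraries. Dixon's test was used at its 95% critical value, which chance passes in about 1 of 20 combinations, and 9 values stood out. The same libraries recur across the combinations, which are not independent. Of these, 3 came from 1 library, female saline replicate 5 of PND1, which also went against its sex label: *Mvd* at 31.2 CPM, *Pmvk* at 56.7 CPM and *Apoe* at 406 CPM were each the highest of their group. *Cyp46a1* stood out as highest in male morphine replicate 5 of PND1 at 43.3 CPM, which also went against its label, as lowest in female morphine replicate 12 of PND14 at 153 CPM and as highest in male saline replicate 1 of 3-Tri at 257 CPM, the shallowest library. *Abcg1* was highest in male saline replicate 3 of PND14 at 59.4 CPM and in female morphine replicate 6 of 3-Tri at 55.5 CPM. *Acat2* was lowest in female morphine replicate 11 of 3-Tri at 55.0 CPM.

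A difference of the morphine log2FC between PND14 and PND1 was called for 8 members by edgeR's test of the difference itself. Of all genes, 7.25% were called above 0 and 6.07% below. With the correction for GC content and length, only *Mvd*, *Tm7sf2* and *Lbr* of these members kept their call. PND14 minus PND1, the difference was 0.46 for *Mvd*, 0.27 for *Tm7sf2*, 0.33 for *Lbr*, 0.35 for *Pmvk*, 0.25 for *Mvk*, 0.26 for *Apoe*, 0.17 for *Fdft1* and -0.21 for *Soat1*. Age, dosing route and cohort differ in the same way and cannot be told apart from the exposure window.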

How the results depend on the processing

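Across the alternatives, 454 counts of called members stayed within 1.5 times the reported count and 50 did not. The 454 include every setting of the comparisons where 0 members were ever called, such as PND1 females and all of 3-Tri. They therefore overstate the stability of the comparisons with calls. Shares of all genes called are not given here for most alternatives, so a change in a count may not be particular to the members. For the saline change from PND1 to PND14 the count ran from 25 to 28 in place of 27. For PND1 with the sexes joined it ran from 2 to 6 in place of 5, and from 4 to 7 with 1 library left out. In PND1 males, where 2 members were called, the count was 1 without the filter on low counts, with the GC content and length correction or with only the 2 groups compared, 4 in DESeq2, 6 without the libraries against the sex label, and 0 to 7 with 1 library left out. There *Scap* had a log2FC of 0.00570 (adjusted p 0.947, edgeR) with the correction in place of -0.13. At PND14 with the sexes joined, where 1 member was called, the count was 0 without the filter, with the correction or without sample ID number 4423, 4424 or 4425, 2 in limma with the number as a random effect, which lies within a drug with 2 numbers each, 3 in DESeq2 and 0 to 2 with 1 library left out. In PND14 males, where 0 were called, it was 1 in DESeq2, in limma, without the 2 shallowest libraries or without number 4422, and 0 to 1 with 1 library left out. The correlation within ID numbers in the limma fit of PND14 was -0.0225. A value below 0 narrows the SE of a drug comparison between numbers, so the limma counts do not show that calls hold against the number. The difference between PND14 and PND1 gave 4 with the correction in place of 8. The robust edgeR fit, which was run before the reported fit and whose calls had been seen when the fit was chosen, called the same number of members in every comparison. The cause of these changes was not tested, apart from the correction's own construction.

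The replicate numbers were not treated as pairs in the reported fit. For males and females, the deviations of same-numbered libraries correlated above 0.1 in 1 of 3 and 1 of 4 pairs at PND1. The same held for 2 of 6 and 2 of 6 pairs at PND14 and for 4 of 6 and 4 of 6 in 3-Tri. The highest correlation in 3-Tri was 0.457, so whether the numbers pair pups there was not settled. Male numbers of PND1 match only in part between the drugs, so pairing could not be judged there. With the replicate number as a block, PND1 gave 6 members with the sexes joined and 4 in males, PND14 gave 0 with the sexes joined, the saline change gave 28 and the difference between windows 12. With the block and the GC content and length correction together, PND1 gave 2 with the sexes joined and 0 in males, PND14 gave 0, the saline change 28 and the difference between windows 6. At PND1 only the 3 male and 4 female numbers found under both drugs inform the drug comparison in these blocked fits. In comparisons between windows the block joined same-numbered pups of different windows, which cannot be pairs. Those counts are therefore no check of pairing. *Tm7sf2* at PND1, sexes joined, had an adjusted p (edgeR) of 0.0907 with the block and 0.152 with both.

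Total counts fell to 3113919 in the shallowest library, a 3-Tri one. The median SE of a log2FC over all genes, with the groups of a window fitted together, was 0.0615 at PND1, 0.0602 at PND14 and 0.0556 in 3-Tri. A call at the adjusted threshold needs a difference of several SE. For a typical gene, differences well above these sizes could therefore also go uncalled.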
